A study of Mus musculus with 8 samples.

Results

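The transcripts described here are those of 33 genes known from neurons, chosen as a list by name and matched by Ensembl identifier, out of 55417 gene rows, in libraries of sorted astrocytes. They fall into 5 excitatory identity genes, 6 genes of inhibitory and other transmitter identity, 11 dendritic and postsynaptic genes and 11 general neuronal genes. Astrocytes were flow sorted from cortical and from subcortical tissue of 4 wild-type mice (WT in the labels) at P29, postnatal day 29. Each of the 4 mice (2 females, numbers 2 and 3, and 2 males, numbers 1 and 4) gave 1 cortical and 1 subcortical library, so each region had 4 libraries. The sources used here do not say how astrocytes were recognised in the sort. Sequencing covered the 3′ ends of mRNA, and levels are CPM, a gene's count scaled to a common library total with TMM factors.

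Astrocytes are glia that wrap synapses with fine processes, and sorted astrocytes can carry RNA of neurons along. Neurons are recognised by their transmitter genes: vesicular glutamate transporters mark excitatory cells, and the enzymes and the vesicular transporter for GABA mark inhibitory cells. Some neuronal mRNAs are carried into dendrites and lie close to synapses, whereas most presynaptic and axonal protein genes keep their mRNA mainly in the cell body. Where in a cell an mRNA lay was not measured here.

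Counts over genes summed to between 3537852 and 4060891 per cortical library and between 2484717 and 3829804 per subcortical one. All 14 genes of an astrocyte marker list passed the filter on low counts. Their summed level was 36230 to 38230 CPM in cortical libraries and 27240 to 28930 CPM in subcortical ones. Of these 14 genes 3 were called higher in cortical libraries and 2 lower. Markers of other cells were also present. For astrocytes and for these cells, genes called by edgeR stand beside 3.42% of all tested genes called higher in cortical libraries and 3.39% lower. Oligodendrocyte lineage genes summed to 1102 to 1558 CPM in cortical libraries and 2583 to 6210 CPM in subcortical ones, with 9 of 12 tested members lower in cortical libraries and 0 higher. Microglial genes summed to 176.2 to 377.9 against 125.0 to 222.1 CPM, with 3 of 9 tested members higher, and 0 when cortical 4 was left out. Endothelial and mural genes summed to 438.9 to 987.8 against 311.5 to 1138 CPM, with 0 of 5 tested members called by edgeR (0 at an unadjusted p under 0.05), DESeq2 or limma-voom, and the endothelial genes Tek and Cdh5 had no count in any library. Ependymal and choroid plexus genes summed to 27.28 to 72.28 CPM in cortical libraries, to 665 CPM in subcortical 3 and to 53.75 to 96.46 CPM in the other subcortical libraries, with 1 of 4 tested members lower in cortical libraries. Neuroblast and progenitor genes moved with region: they summed to 3137 to 4977 against 1252 to 2328 CPM, higher in cortex in all 4 mice. Of 6 tested members 4 were higher, also without cortical 4, and 3 with the mouse as a block or with limma-voom. Most of that sum was the tubulin gene Tubb2b (3656 against 1406 CPM), while Dcx, a defining neuroblast gene, had 28 cortical and 16 subcortical counts. The part of these lists in the results was not tested. In bulk samples such as these, a difference in the number of cells of a type and a difference in RNA per cell cannot be told apart.

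Promoter sequence was available for 26 of the 33 members, with 35 start sites, from RefSeq on the build GRCm38.p6, which is not the build GRCm39 of the counts. The 250 bases before the start site are shown for Nrgn and Slc17a7, which were higher in cortical libraries, and for Syn1, a general neuronal gene that was not called. Capitals mark exact matches, on either strand, to 3 motifs: TTCAGCACC, the left arm of the element bound by the neuronal gene repressor REST, CAGATG, an E-box form bound by neuronal basic helix-loop-helix factors, and GGGCGG, the GC box. The Nrgn stretch is chr9:37552746-37552995 on the minus strand, the Slc17a7 stretch chr7:45163671-45163920 on the plus strand and the Syn1 stretch chrX:20920919-20921168 on the minus strand.
Nrgn: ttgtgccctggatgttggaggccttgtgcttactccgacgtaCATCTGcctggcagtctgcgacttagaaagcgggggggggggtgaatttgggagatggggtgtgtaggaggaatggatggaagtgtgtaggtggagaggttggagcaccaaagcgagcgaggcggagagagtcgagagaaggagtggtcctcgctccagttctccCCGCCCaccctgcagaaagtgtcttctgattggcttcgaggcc
Slc17a7: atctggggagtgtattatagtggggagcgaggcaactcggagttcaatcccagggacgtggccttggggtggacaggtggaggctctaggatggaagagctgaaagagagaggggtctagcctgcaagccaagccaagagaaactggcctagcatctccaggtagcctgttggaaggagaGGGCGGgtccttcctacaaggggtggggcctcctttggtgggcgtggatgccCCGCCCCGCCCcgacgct
Syn1: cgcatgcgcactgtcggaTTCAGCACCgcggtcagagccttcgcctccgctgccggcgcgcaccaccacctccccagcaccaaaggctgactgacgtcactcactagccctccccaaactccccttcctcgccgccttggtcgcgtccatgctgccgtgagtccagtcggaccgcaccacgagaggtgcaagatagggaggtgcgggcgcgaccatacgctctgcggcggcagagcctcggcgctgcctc
The left REST arm lay 232 to 224 bases before the Syn1 start and in no other member's window, and 0.301% of the 32851 promoters of the same length in the table held it. The right arm, GGACAGCGC, was also searched on both strands. It was found for Gad2 alone among the members and in 0.304% of all promoters. CAGATG was found at 6 of the 35 member starts, 17.1%, against 14.4% of all promoters, and GGGCGG at 15 of 35, 42.9%, against 32.7%. GC box matches overlap each other close to the Slc17a7 start. These matches describe the letters only.

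The first question was which of the neuronal transcripts differed between cortical and subcortical astrocytes. In a fit without pairing by mouse, Nrgn, Camk2a, Slc17a7, Dlg4 and Psd were higher in cortical libraries, and Nefl and Snhg14 were lower. With the mouse as a block Psd was not called (edgeR adjusted p = 0.0782). Of the 33 members 23 passed the filter on low counts, and by the quasi-likelihood test of edgeR, adjusted after Benjamini and Hochberg over all 11781 tested genes, 5 of them were called higher, 2 lower and 16 in neither direction at an adjusted p of 0.05. Among all tested genes 6.81% were called, 3.42% higher and 3.39% lower. The median log2 fold change (cortical minus subcortical) was 0.76 over the tested members and -0.01 over all tested genes. Slc17a7 passed the filter through its cortical libraries alone, so that a gene like it had to differ, and these counts describe the list without testing it.

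The number of called members varied with the method. With the mouse as a block 4 members were higher and 2 lower (3.72% and 3.8% of all tested genes), with DESeq2 7 and 2 (4.43% and 4.31%) and with limma-voom 3 and 2 (3.11% and 3.48%). Testing every gene with a count gave 8 and 3 (2.39% and 2.48%), raw library totals 7 and 1 (5.79% and 2.07%), and an adjusted p under 0.01 gave 3 and 1 (2.13% and 1.92%). Without cortical 4 there were 4 and 3 (3.07% and 3.32%). Nrgn and Camk2a were called higher under all of these, and Nefl lower.

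**Figure D1:**
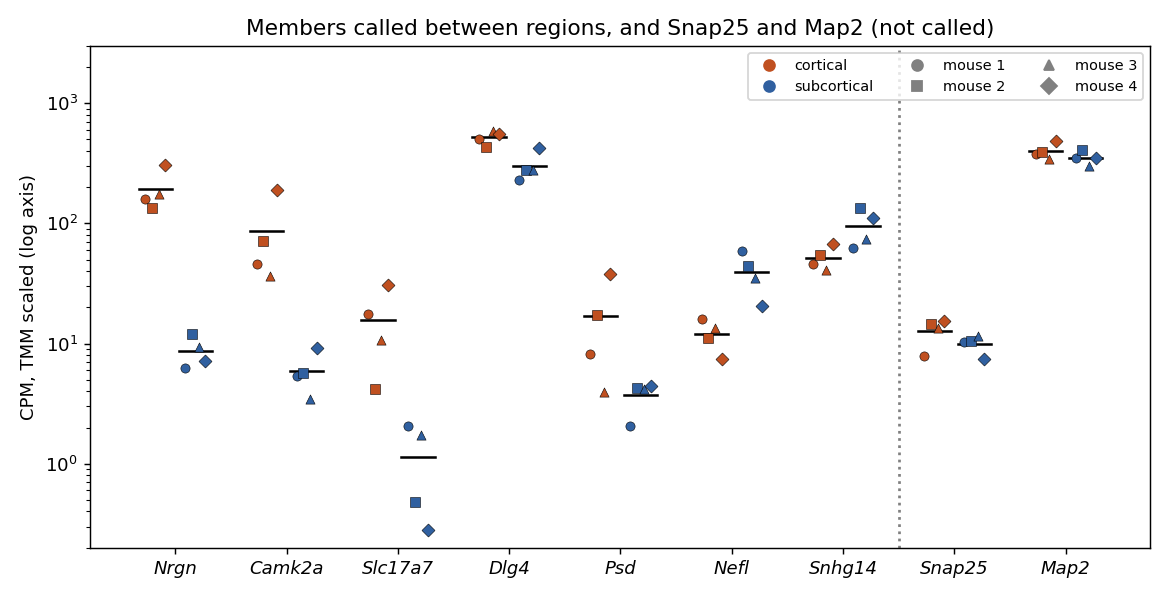
Level of the 7 called members and of Snap25 and Map2 in each library, in TMM-scaled CPM on a log axis. Each point is 1 library, its shape the mouse and its colour the region, and the line is the mean of the 4 libraries. Cortical Nrgn ranged from 134 to 307 CPM and subcortical Nrgn from 6.20 to 11.9 CPM, while the Snap25 and Map2 values of the regions overlapped.

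Dendritic and postsynaptic members held 4 of the 5 higher calls, among 10 tested in that class, where 3.42% of all tested genes were higher. Only 1 excitatory identity gene was tested, and it was called higher too. Nrgn (ENSMUSG00000053310) encodes neurogranin, a postsynaptic protein that binds calmodulin. It stood at 160.0, 134, 177 and 307 CPM in the cortical libraries of mice 1 to 4 and at 6.20, 11.9, 9.38 and 7.20 CPM in their subcortical libraries. The lowest cortical library was thus far above the highest subcortical one, and cortical 4 was the highest. Nrgn was 22.6-fold higher in cortical libraries (log2 fold change 4.50, SE 0.29, edgeR adjusted p = 7.0e-10, n = 4 per region), from 3212 cortical and 93 subcortical counts, and it was called in every fit that left out a library or a mouse. Camk2a (ENSMUSG00000024617) encodes the alpha subunit of the calcium/calmodulin-dependent kinase II of excitatory neurons. Its cortical levels were 46.1, 72.0, 36.4 and 189 CPM and its subcortical levels 5.38, 5.73, 3.47 and 9.14 CPM, in the order of the mice. The regions did not overlap, and cortical 4 was again the highest by a wide margin. Camk2a was 14.2-fold higher (log2 fold change 3.82, SE 0.46, edgeR adjusted p = 6.2e-06, n = 4 per region). Without cortical 4 the log2 fold change was 3.09 and the call held (edgeR adjusted p = 5.6e-06).

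Camk2b, the gene of the beta subunit of the same kinase, which neurons of many kinds use, did not share this pattern. It stood at 3.63 to 7.66 CPM in cortical libraries and 6.09 to 9.92 CPM in subcortical ones, lower in the cortical library of 3 mice and higher in that of 1. Its log2 fold change was -0.70 (95% interval -1.93 to 0.52, edgeR adjusted p = 0.616). The difference between the 2 kinase genes' changes was not tested.

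Dlg4 (ENSMUSG00000020886) encodes PSD-95, the main scaffold of the postsynaptic density. Its cortical levels were 508, 435, 583 and 550.0 CPM and its subcortical levels 230.3, 277, 279 and 425 CPM. All cortical libraries were above all subcortical ones, although cortical 2 was close to subcortical 4. The rise was 1.71-fold (log2 fold change 0.77, SE 0.19, edgeR adjusted p = 0.0103, n = 4 per region). The adjusted p was 0.0947 without mouse 1 and 0.108 without mouse 3.

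Psd, the gene of a guanine nucleotide exchange factor of dendritic spines, stood at 8.13, 17.4, 3.95 and 37.8 CPM in cortical libraries and 2.07, 4.30, 4.17 and 4.43 CPM in subcortical ones. Cortical 3 fell within the subcortical range, so the regions overlapped. The log2 fold change was 2.15 (SE 0.62, edgeR adjusted p = 0.0357, n = 4 per region). Without cortical 4 the log2 fold change was 1.37 (adjusted p = 0.330). The call was also lost without cortical 2 or any 1 subcortical library (adjusted p from 0.0604 to 0.103), at log2 fold changes of 1.96 to 2.25. Blocking by mouse gave an edgeR adjusted p of 0.0782, sex as a covariate one of 0.0513, and limma-voom gave an adjusted p of 0.374. An exon of Psd overlaps one of Nfkb2 on the opposite strand, and the sources used here do not say if counting used strand. Nfkb2 itself was not called (log2 fold change 0.40, edgeR adjusted p = 0.820).

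Ddn, the gene of dendrin, a protein of dendrites and spines, did not pass the filter. It had 5.42, 1.55, 5.11 and 10.5 CPM in cortical libraries and, in subcortical ones, 0.41 CPM in mouse 1 and 0 in the other mice. The 94 cortical counts against 1 subcortical count gave a ratio, scaled for library size, of 63.1 (95% exact binomial interval 11 to 2520, counting error only). When every gene with a count was tested, Ddn was called (edgeR adjusted p = 0.00902).

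The remaining dendritic and postsynaptic members were not called. Map2, the gene of the main dendritic microtubule protein, stood at 375, 389.6, 341 and 487 CPM in cortical libraries and 348, 411, 301 and 348 CPM in subcortical ones, with a log2 fold change of 0.18 (95% interval -0.16 to 0.52, edgeR adjusted p = 0.658). Its regions overlapped broadly, and the interval leaves no room for a change like that of Nrgn. Ppp1r9b, which encodes the spine protein spinophilin, likewise had a log2 fold change of 0.06 (95% interval -0.48 to 0.61, edgeR adjusted p = 0.946). Homer1, whose protein links postsynaptic receptors to calcium stores, stood at 15.3 to 20.8 CPM in cortical libraries and 8.27 to 12.8 CPM in subcortical ones. The groups did not overlap, but the log2 fold change of 0.74 (95% interval -0.03 to 1.5) missed the threshold (edgeR adjusted p = 0.312). The scaffold genes Shank1 and Dlgap3 had log2 fold changes of 0.94 (95% interval 0.09 to 1.79) and 1.92 (-0.23 to 4.06), with edgeR adjusted p of 0.221 and 0.369. Shank1 was at 16.5 to 25.6 CPM in cortical libraries 1 to 3 and at 63.7 CPM in cortical 4.

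**Figure D2:**
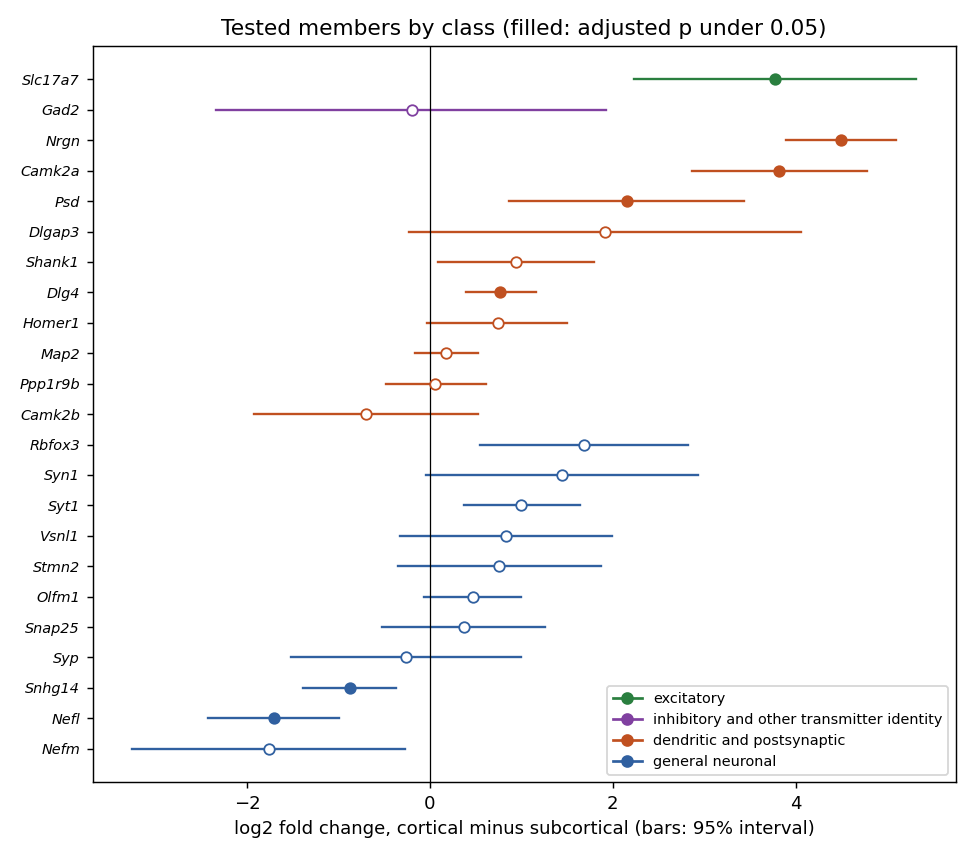
Log2 fold change (cortical minus subcortical) of the 23 tested members by class, with 95% intervals from edgeR's fit of 4 against 4 libraries. Filled points passed an adjusted p of 0.05. Nrgn, Camk2a and Slc17a7 lie above 3, whereas Map2, Ppp1r9b and Snap25 lie near 0 and Nefl and Nefm below -1.

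Among excitatory identity genes, Slc17a7 (ENSMUSG00000070570), which encodes the vesicular glutamate transporter VGLUT1 of cortical excitatory neurons, was the only one that passed the filter. It stood at 17.5, 4.15, 10.7 and 30.6 CPM in cortical libraries and 2.07, 0.48, 1.74 and 0.28 CPM in subcortical ones. The groups did not overlap, with cortical 4 highest and cortical 2 lowest of the cortical libraries. The rise was 13.7-fold (log2 fold change 3.77, SE 0.74, edgeR adjusted p = 0.00196, n = 4 per region), and limma-voom did not call it (adjusted p = 0.186). The subcortical levels rest on 12 counts in all.

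Slc17a6, the gene of VGLUT2, the transporter of thalamic and other subcortical excitatory neurons, ranged from 1.04 to 3.70 CPM in cortical libraries and from 0 to 3.82 CPM in subcortical ones, with 38 and 18 counts, and was not tested. Tbr1, a transcription factor gene of deep layer cortical neurons, had 76 counts in cortical libraries (9.86, 0, 6.27 and 2.15 CPM) and 0 in subcortical ones. With 3 counts taken as the subcortical limit, the pooled counts gave a scaled ratio of 17. That ratio covers counting error only and not the spread between libraries, and cortical 2 had no count either. With every gene tested, Tbr1 was called (edgeR adjusted p = 0.00710). Neurod2, a basic helix-loop-helix factor gene of excitatory neurons, stood at 0.99 to 7.66 CPM in cortical libraries and 0 to 1.66 CPM in subcortical ones and was not called when every gene was tested (edgeR adjusted p = 0.482). Neurod6, of the same factor family, had 7 counts, all of them in cortical 4.

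Genes of inhibitory and other transmitter identity were near the limit of detection in both regions. Gad2, which encodes an enzyme that makes GABA, was the only one tested. Its cortical levels were 3.45, 2.07, 5.34 and 3.83 CPM and its subcortical levels 8.27, 0, 8.68 and 0 CPM, so that subcortical libraries were either above all cortical ones or without a count. Its log2 fold change was -0.20 (95% interval -2.34 to 1.93, edgeR adjusted p = 0.957), an interval too wide to place it. Gad1, the gene of the other GABA-making enzyme, had 41 cortical and 29 subcortical counts and reached 7.90 CPM in cortical 4 and 5.38 CPM in subcortical 1. Slc32a1, which encodes the vesicular GABA transporter, had 8 and 11 counts, the somatostatin gene Sst 18 and 15, and the parvalbumin gene Pvalb 4 and 5. Th, the gene of tyrosine hydroxylase, the first enzyme of catecholamine synthesis, had no count in any library, where a count of 0 allows 0.70 to 1.43 CPM in a single library (counting error only).

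General neuronal genes were mostly not called. Snap25, whose protein drives fusion of synaptic vesicles, stood at 7.89, 14.5, 13.5 and 15.3 CPM in cortical libraries and 10.3, 10.5, 11.5 and 7.47 CPM in subcortical ones. The ranges overlapped, and the log2 fold change was 0.37 (95% interval -0.53 to 1.26, edgeR adjusted p = 0.750). Syp, the gene of the vesicle protein synaptophysin, had a log2 fold change of -0.26 (95% interval -1.52 to 1.00, edgeR adjusted p = 0.896). Syt1, which encodes the calcium sensor of vesicle release, was at 26.4 to 39.4 CPM in cortical libraries and 12.4 to 23.3 CPM in subcortical ones. Its regions did not overlap, yet the log2 fold change of 1.00 (SE 0.31) had an edgeR adjusted p of 0.0523, just short of a call, and DESeq2 called it (adjusted p = 0.0296). Rbfox3, the gene of the neuronal nuclear antigen NeuN, stood at 7.64, 19.7, 29 and 38.8 CPM in cortical libraries and 10.8, 6.21, 11.8 and 1.11 CPM in subcortical ones, with cortical 1 inside the subcortical range (log2 fold change 1.68, SE 0.55, edgeR adjusted p = 0.0697, DESeq2 adjusted p = 0.0404). Syn1, which encodes the vesicle protein synapsin I, Vsnl1, a calcium sensor gene, the microtubule regulator gene Stmn2 and the secreted glycoprotein gene Olfm1 had log2 fold changes of 1.44, 0.83, 0.76 and 0.47, with edgeR adjusted p between 0.304 and 0.535.

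Nefl and Nefm, the genes of the light and medium neurofilament proteins of axons, had lower mean levels in cortical libraries, and the difference passed the test for Nefl. Nefl (ENSMUSG00000022055) stood at 16, 11.1, 13.5 and 7.42 CPM in cortical libraries and 58.7, 44.4, 35.1 and 20.5 CPM in subcortical ones. Every cortical library was below every subcortical one. Nefl was 3.28-fold lower in cortical libraries (log2 fold change -1.71, SE 0.35, edgeR adjusted p = 0.00243, n = 4 per region). In each of the 4 mice Nefm was lower in cortex, at 4.68, 0, 2.79 and 11 against 26.9, 15.3, 6.25 and 14.9 CPM, but its log2 fold change of -1.76 (SE 0.72) did not pass the test (edgeR adjusted p = 0.183), and did so without cortical 4 (adjusted p = 0.0406). The 2 genes have exons that overlap on opposite strands, so their counts may not be independent. The 4 subcortical libraries had the same order of levels in Nefl and in the summed oligodendrocyte lineage genes (6210, 3506, 3339 and 2583 CPM). The cortical libraries did not. Their oligodendrocyte sums were 1452, 1102, 1217 and 1558 CPM, highest in cortical 4, where Nefl was lowest. The part of the oligodendrocyte lineage genes in the result was not tested.

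Snhg14 is a long noncoding RNA of the imprinted Prader-Willi region, which in neurons runs antisense through Ube3a. It stood at 45.6, 54.4, 40.6 and 67.0 CPM in cortical libraries and 62.9, 135, 73.6 and 111 CPM in subcortical ones, lower in the cortical library of every mouse although cortical 4 was above subcortical 1. It was 1.84-fold lower in cortical libraries (log2 fold change -0.88, SE 0.25, edgeR adjusted p = 0.0296, n = 4 per region). Leaving out any of cortical 1, 2 and 3 and subcortical 2 and 4 ended the call (adjusted p from 0.0609 to 0.147), as did raw library totals (0.0980). The call was also lost without any 1 of the 4 mice (edgeR adjusted p from 0.0502 to 0.208). Ube3a, whose exons overlap those of Snhg14 on the opposite strand, was not called (log2 fold change -0.10, edgeR adjusted p = 0.852).

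Counted by separation, 6 of the 23 tested members had all cortical libraries above all subcortical ones, against 6.54% of all tested genes. They were Nrgn, Camk2a, Slc17a7, Dlg4, Homer1 and Syt1. Nefl alone had all cortical libraries below, against 5.64% of all tested genes. Slc17a7 passed the filter through its cortical libraries alone, so that a gene like it had to separate. These counts too describe the list without testing it.

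**Figure D3:**
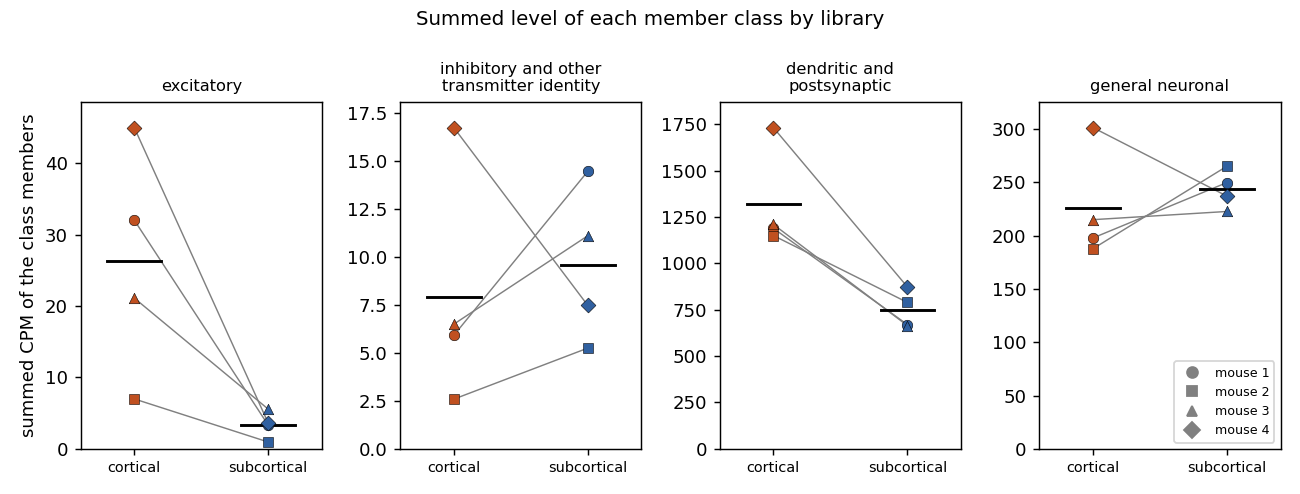
Summed CPM of the members of each class in each library, with lines joining the libraries of 1 mouse and bars at the mean of 4 libraries. Excitatory and dendritic sums were higher in the cortical library of all 4 mice, whereas the general neuronal sum was higher in that of mouse 4 only. The general neuronal sum includes Snhg14 and Nefl, the 2 members called lower.

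Summed by class, the levels showed which groups of transcripts differed within each mouse. These sums are descriptions with no test. Dendritic and postsynaptic members summed to 1320 ± 276 CPM in cortical libraries and 749 ± 101 CPM in subcortical ones (SD, n = 4), higher in the cortical library of all 4 mice by 360.4 to 859 CPM. Map2 and Dlg4 made up most of the summed level but 262.3 of the mean difference of 570.9 CPM. Without them the sum was 403 ± 196 against 94.4 ± 7.82 CPM (SD, n = 4), a ratio of 4.27, and the cortical mean was 306 CPM when cortical 4 was left out. Excitatory members summed to 32, 7.0, 21.1 and 45 CPM in cortical libraries and 3.31, 0.96, 5.56 and 3.60 CPM in subcortical ones, again higher in the cortical library of all 4 mice. General neuronal members summed to 225 ± 51.9 against 244 ± 18.1 CPM (SD, n = 4), a difference smaller than the spread between cortical libraries and of the opposite sign with raw library totals (241.2 against 226.2 CPM). Only mouse 4 had the higher general neuronal sum in cortex. Inhibitory and other transmitter members summed to 2.59 to 16.8 CPM in cortical libraries and 5.25 to 14.5 CPM in subcortical ones, which overlapped.

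The cortical library of mouse 4 stood apart within its region. It had the highest cortical level of 17 of the 23 tested members, and of 28.1% of all 11781 tested genes. Cortical 1, 2 and 3 were highest for 3, 0 and 3 members, against 23.7%, 24.7% and 23.5% of all tested genes. Relative to the median of the 4 cortical libraries, on the log2(CPM + 1) scale, the tested members had a median deviation of 0.42 in cortical 4, 22 of 23 lying above 0, and of -0.06, -0.27 and -0.16 in cortical 1, 2 and 3. Nefl was the member with the opposite sign, lowest in cortical 4 among the cortical libraries. These deviations were not calculated for all tested genes. The subcortical library of the same mouse did not stand apart, with a median deviation of -0.05. It held the highest subcortical level of 6 of 23 members, against 26.1% of all tested genes. Microglial genes were also highest in cortical 4, at 377.9 CPM against 176.2 to 264.2 CPM in the other cortical libraries, while its astrocyte sum, 36370 CPM, lay within their range. The part of this in the results was not tested. Without cortical 4, Nrgn, Camk2a, Slc17a7 and Dlg4 were still called higher, Psd was not, and Nefl, Nefm and Snhg14 were called lower.

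**Figure D4:**
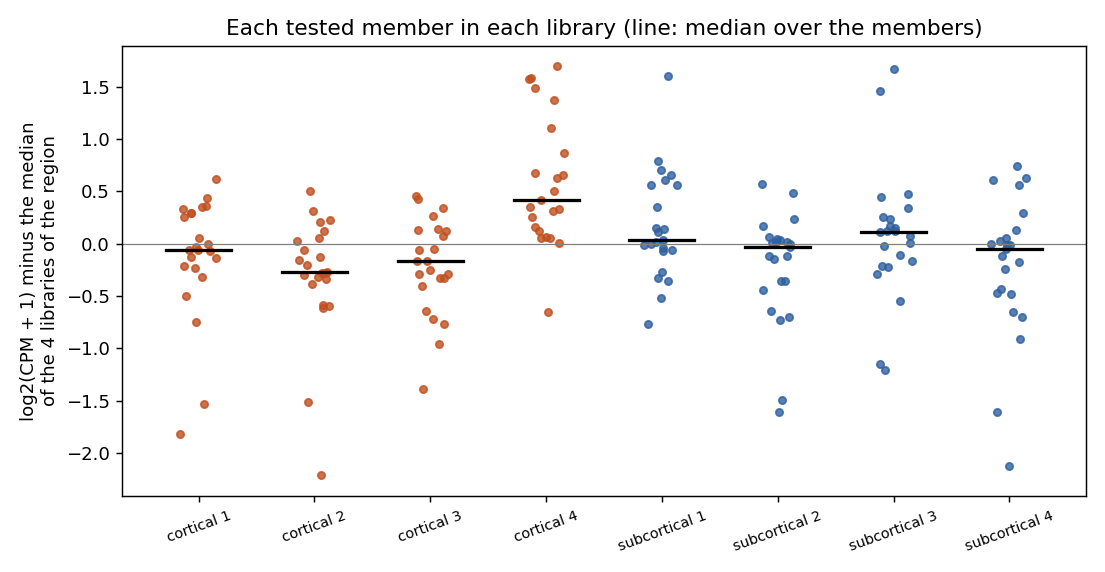
Deviation of each of the 23 tested members in each library from the median of the 4 libraries of its region, on the log2(CPM + 1) scale. Points are members and lines are medians over members. Cortical 4 has a median of 0.42, with 22 of 23 members above 0.

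Other genes known from neurons were read from lists beside the members, to see whether whole groups differed. Among all tested genes edgeR called 3.42% higher and 3.39% lower. Vesicle release genes had 2 of 15 tested members higher and 0 lower (median log2 fold change 0.07). Cplx2, which encodes a complexin that clamps vesicle fusion, stood at 30.1 ± 7.91 against 13.1 ± 3.19 CPM (SD, n = 4 per region, edgeR adjusted p = 0.0239), and Vamp2, the gene of a vesicle fusion protein, at 160.3 ± 28.2 against 100.9 ± 12.2 CPM (SD, n = 4 per region, edgeR adjusted p = 0.0268). Without cortical 4 neither was called. The vesicle genes Stx1a and Syn2 had log2 fold changes of 2.05 and -0.62 (edgeR adjusted p = 0.0512 and 0.0578), and with the mouse as a block both were called (0.0305 and 0.0397). Postsynaptic density genes beyond the members had 0 of 13 called in either direction (median 0.38; edgeR), axon and cytoskeleton genes 0 of 17 (median 0.24; edgeR) and imprinted and long noncoding neuronal RNAs 0 of 6 (median -0.03; edgeR). At an unadjusted p under 0.05 there were 4, 6 and 0 of them, respectively, DESeq2 called 0 of 12, 1 of 17 and 0 of 6, and limma-voom called 0 in each list. Grin1, the gene of the obligatory NMDA receptor subunit, had the smallest p of the postsynaptic list, at a log2 difference of 2.85 with an SE of 1.16 (edgeR adjusted p = 0.182).

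Lists of neuron types had few tested genes, and their calls stand beside 6.81% of all tested genes called by edgeR. Excitatory neuron genes beyond the members had 0 of 6 called by edgeR (median 0.15). At an unadjusted p under 0.05 there were 2, and DESeq2 and limma-voom each called 1. Rorb, a nuclear receptor gene that astrocytes also express, was called higher by edgeR with the mouse as a block (586.1 ± 131.5 CPM in cortical and 381.6 ± 96.9 CPM in subcortical tissue, SD, n = 4 per region), where its edgeR adjusted p was 0.0204 in place of 0.0654. Interneuron genes had 1 of 7 lower and 0 higher (median -0.08), and 2 lower with the mouse as a block, with DESeq2 and with limma-voom. The gene called without the block was Erbb4, a neuregulin receptor gene, at 6.36 ± 0.87 against 38.4 ± 6.62 CPM (SD, n = 4 per region, edgeR adjusted p = 7.6e-06), and Vip, Lhx6 and Dlx5 of the same list had no count in any library. Striatal neuron genes had 1 of 4 higher, the adenosine receptor gene Adora2a, at 51.17 ± 17.5 against 19.98 ± 9.08 CPM (SD, n = 4 per region, edgeR adjusted p = 0.0119). Thalamic, hypothalamic and midbrain neuron genes had 1 of 2 lower, the Wnt pathway factor gene Tcf7l2, at 144.5 ± 7.35 against 217.7 ± 37.7 CPM (SD, n = 4 per region, edgeR adjusted p = 0.0359), a call kept in 1 of the 8 fits that left out a library. Of the 10 monoamine and acetylcholine neuron genes 5 had no count in any library, and the 1 tested, Ddc, was not called (edgeR adjusted p = 0.915, unadjusted p = 0.719), nor with DESeq2 or limma-voom.

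The series' title names female mice, and both sexes were sampled, so sex was examined for the members. With edgeR, 0 of 23 tested members were called between females and males over both regions or in the interaction of region and sex, where 0.0424% and 0% of all tested genes were called. At an unadjusted p under 0.05 there were 2 for sex, Camk2a and Nefm, and 1 for the interaction, Nrgn, against 4.44% and 3.42% of all tested genes. With median-of-ratios size factors the counts of called members were also 0, and so they were for sex with counts summed per mouse (28 members tested, 0.0373% of all genes called) and for the interaction with the mouse as a block. Each sex had 2 libraries per region.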

How the data were processed

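RNA of 8 libraries was measured by forward QuantSeq 3′ sequencing, per the labels' protocols. Values are raw read counts per gene as deposited by the authors. Per the submitters' processing notes, FastQC 0.11.5, STAR 2.6.0, HTSeq 0.9.0, DESeq2 1.35.0 and the build GRCm39 were used. Their settings, strand use and molecular identifiers are not given in the sources used here. HTSeq's summary rows stayed out of totals: reads without a feature made up 30.2 to 40.7% and ambiguous reads 0.38 to 0.55%. The deposited normalized table, with 8 columns, was not used. Symbols were matched for 52083 of 55417 rows.

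Genes were kept by filterByExpr (a minimum count of 10, about 2.79 CPM, in 4 libraries), scaled by TMM and tested with edgeR 4.0.16 (quasi-likelihood) in R 4.3.3, cortical against subcortical, with Benjamini-Hochberg adjustment over all tested genes at 0.05. SE and 95% intervals come from this fit. DESeq2 1.42.0 and limma-voom (limma 3.58.1) were alternatives, and the code was tested on simulated data. Replicates of a region differed by more than counting noise, with chi-square values of 11.7 to 23.7 for each degree of freedom. Libraries with 1 number came from 1 mouse, per the labels. Their deviations from the regional means correlated at 0.0195 to 0.0592 within mice and at -0.0841 to 0.0471 between mice, and a fit with the mouse as a block is given where it changed a call. Intervals and floors of 3 counts cover counting error only.

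All 33 members are reported. From each other neuronal list at most 4 genes with the smallest p were eligible to be named, and the genes without a count were named after their values were seen. A result for 1 gene of the other lists is not reported here. The members and all lists were chosen with earlier results of these data known. Exon overlaps were read from GENCODE M21 models on GRCm38, for gene names only. They were found for 10 of the 33 members.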

Additional observations from a re-analysis of the deposited data

Results flagged for a closer look

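Some members had a library far from the other 3 of its region, by a gap above Dixon's 95% critical share of the range of the 4 libraries. Over the 74 groups of libraries examined, chance alone flags about 1 in 20 if values are normally distributed. A gene with counts in 1 library of a region alone is always flagged, as were Neurod6, Pvalb and Ddn. Cortical 4 was the distant library for Gad1 (7.90 CPM, others 0.23 to 1.48), Sst (4.07 CPM, others 0 to 0.26), Neurod6 (1.68 CPM, others 0) and Pvalb (0.957 CPM, others 0). It was also the distant one in the summed dendritic and postsynaptic members (1730 CPM, others 1150 to 1210) and in the sum of all 33 members (2100 CPM, others 1350 to 1450). Sst was at 3.60 CPM in subcortical 4 as well, against 0 to 0.41 CPM in the other subcortical libraries, so both libraries of mouse 4 had the highest Sst of their region. Syt1 was at 23.3 CPM in subcortical 4, against 12.4 to 14.2 CPM. Among low values, Psd was at 2.07 CPM in subcortical 1, against 4.17 to 4.43 CPM, and Shank1 at 7.64 CPM in subcortical 3, against 18.6 to 19.4 CPM. Ddn had its single subcortical count in subcortical 1 (0.413 CPM, others 0). Gad1, Sst, Neurod6, Pvalb and Ddn rest on few counts.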

How the results depend on the processing

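The count of members higher in cortical libraries was 5. It was 3 with limma-voom, 3 at an adjusted p under 0.01 and 8 with no filter on low counts, 4 to 7 under the other alternatives, and 4 to 6 when 1 library or 1 mouse was left out. The count of lower members was 2. It was 1 with raw library totals and 1 at an adjusted p under 0.01, and ranged from 1 to 3 when a library or a mouse was left out. With the mouse as a block (pairing by mouse) the counts were 4 higher, Psd being lost, and 2 lower. Raw library totals moved the median log2 fold change of all genes to 0.19 and the share of higher calls from 50.2% to 73.7%.

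Among members, directions changed only for those that were not called. Gad2 had a log2 fold change of 1.692 with limma-voom and 0.946 with the block, 0.330 and 0.433 without subcortical 1 and 3, and 0.359 and 0.199 without mouse 1 and 3 (range with a library or mouse left out -0.638 to 0.433). Ppp1r9b was at -0.002 with limma-voom, at -0.038 and -0.091 without cortical 2 and 4, at -0.001 without subcortical 3, and at -0.014 and -0.022 without mouse 2 and 4 (range -0.091 to 0.238). Syp was at 0.000 without subcortical 1 and 0.006 without mouse 1 (range -0.462 to 0.006), and Vsnl1 at -0.114 without mouse 4 (range -0.114 to 1.272). The causes were not tested. Each class sum moved by less than 1 SD under each scaling, thinning and left-out library or mouse, but 2 small regional differences changed sign. The general neuronal sum was 241.2 against 226.2 CPM with raw library totals and 242.4 against 240.8 CPM without mouse 2. The inhibitory and other transmitter sum was 9.63 against 9.489 CPM without cortical 2 and 8.581 against 7.916 CPM without mouse 1. The planned exchange of regions within mice for class sums was not run, since a sum over members chosen with results known gets no p. The 10 members that failed the filter on low counts were tested where no filter was used, except Th, which had no count. Some also passed the filter with counts summed per mouse, or where a library or a mouse was left out. Of the latter, Slc17a6 and Gad1 were not called. Ddn was called higher without cortical 2 (edgeR adjusted p = 0.00911), any 1 subcortical library (0.021 to 0.0383) or mouse 2 (0.0218). It is part of the counts of higher members in those fits.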
